A study of Mus musculus with 36 samples.

Results

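Gene expression in cells with nuclear Ikaros was compared with that in control cells at 18 h after the drug 4-hydroxy-tamoxifen (4-OHT) was added. The 3 Ikaros and 3 control libraries of that time point, from culture batches 1, 3 and 4, were taken by their labels and make up 6 of the 36 libraries of the series. All 12762 genes of the table were included. The cells, called B3, are a line of dividing mouse pre-B cells, an early step on the way to B lymphocytes. Both lines are B3 cells infected with an MSCV retrovirus and sorted for GFP. In the Ikaros line the vector encodes wild-type Ikaros with a haemagglutinin tag, joined to the ERt2 hormone-binding domain and followed by IRES-GFP. In the control line it encodes ERt2 and IRES-GFP without Ikaros. Both received 0.5 uM 4-OHT for 18 h, so the control line carries the background of drug, vector and culture. Differences between the lines that were present before the drug remain in the comparison at 18 h. Unless another time is named, rises and falls are differences from control at 18 h. The remaining libraries are 3 per line at 0, 2, 6, 12 and 24 h. Cells of 0 h received no drug and were grown on other occasions, as batches 1, 2 and 4. Ikaros was driven by the vector rather than by its own gene, and all libraries descend from 1 cell line.

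Ikaros is a zinc finger transcription factor of lymphoid cells. At the pre-B stage a receptor made of the immunoglobulin mu chain and a surrogate light chain drives division, and Ikaros is known to help end that phase, to silence the surrogate light chain and Myc, and to allow light chain recombination. Pre-B cells that stop dividing become smaller and lower their growth metabolism.

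Levels are log2 values after the authors' adjustment for GC content, transcript length and library preparation, shifted by 1 fixed amount, so that differences between libraries can be read but not the size of 1 level alone. A gene was called where the limma test gave an adjusted p under 0.05 after Benjamini-Hochberg correction over all genes. Values of the 3 libraries of a line are given in the order of batches 1, 3 and 4. The libraries hold RNA from whole cultures, so fewer cells with a transcript and less of it per cell cannot be told apart.

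The targeted gene followed the labels. Ikzf1, which encodes Ikaros, read 14.67, 14.56 and 14.15 in the control libraries and 20.66, 20.65 and 20.66 in the Ikaros libraries. The lines did not overlap, and the difference was 6.20 (SE 0.18, adjusted p = 1.91e-19), or 73.7-fold. It was already 5.19 at 0 h, and rose by 1.01 (adjusted p = 0.00239) between 0 h and 18 h. The Ikaros line thus carried the transcript before the drug, which acts on where the protein is.

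All 12 B lineage markers of a fixed list were in the table, and their mean level per library ran from 13.2 to 13.4 in control and from 14.2 to 14.3 in Ikaros cells. Of 39 markers listed for T and NK, myeloid, erythroid and plasma cells, 15 were in the table, and none of 8 fibroblast markers was. Cd3e, Cd4, Cd8a, Csf1r, Mpo, Elane, Gata1, Prdm1 and Sdc1, which define those other types, were not among the genes of the table. Of the markers present, Itgam, an integrin chain best known from myeloid cells, was 4.52 higher in Ikaros cells, and Lyz2, a myeloid lysozyme, was 2.06 lower. Of the 4 T and NK markers in the table, Klrb1c, an NK receptor gene, was 1.98 higher and Gata3, a T cell factor, 1.49 higher, while Zap70 and Lck, T cell kinases, were 0.92 and 0.28 lower. The Klrb1c call was lost without the control library of batch 1 or 3 or the Ikaros library of batch 1 or 4 (adjusted p from 0.0518 to 0.0875). That of Gata3 was lost without the Ikaros library of batch 1 (adjusted p = 0.0602). The Lck call was lost in 8 alternatives, among them the fit without the control library of batch 4 (adjusted p = 0.195). When the 0 h difference was subtracted, none of these 4 markers was called up and 2 were called down. Of all genes, 43.0% were called in that test. Of the 4 plasma cell markers, Xbp1 and Derl3 were higher and Irf4 and Fkbp11 lower. Hbb-b2, a globin gene, was 1.25 higher, the 1 of 4 erythroid markers that was called. These differences went in both directions, and their part in the results was not tested.

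Library medians at 18 h lay between 11.71 and 11.72. Each control library correlated with the others of its group at a mean r of 0.976, 0.980 and 0.966 across genes, and each Ikaros library at 0.988, 0.990 and 0.988. The control library of batch 4 had the lowest such value of all 36 libraries. Each of the 6 libraries came from a different preparation run, so preparation and library cannot be told apart within 18 h alone.

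A majority of the genes differed between the lines. In all, 7423 genes (58.2%) passed the test, 3702 with a higher level in Ikaros cells (29.0%) and 3721 with a lower one (29.2%). The typical difference was moderate: the median size among called genes was 0.95, while the median over all genes was -0.02. A difference of at least 1 was reached by 3484 called genes (27.3%), 1726 higher (13.5%) and 1758 lower (13.8%). At a difference of at least 2, which is 4-fold, 537 genes were higher (4.21%) and 461 lower (3.61%). In 8236 genes (64.5%) the 3 Ikaros values did not overlap the 3 control values. Of the called genes, 7345 (57.6% of all genes) moved the called way within each of the 3 batches.

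**Figure D1:**
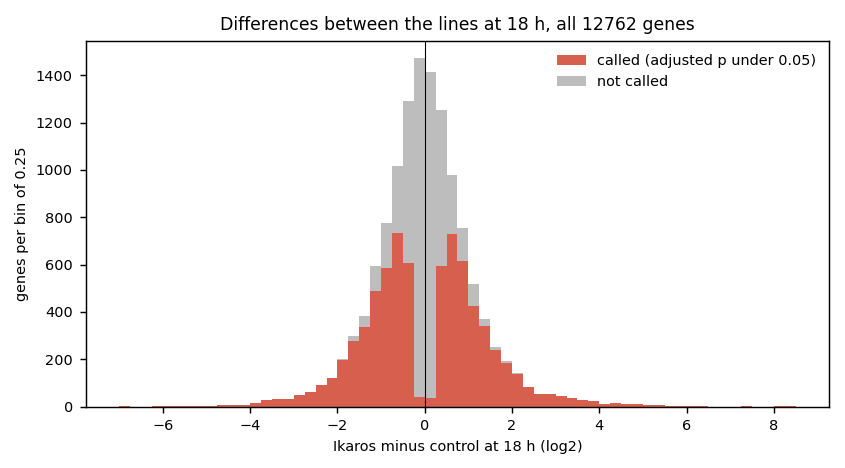
Number of genes (vertical axis) by the log2 difference between Ikaros and control cells at 18 h (horizontal axis, bins of 0.25), with called genes in red and genes not called in grey. The 3702 genes called higher and the 3721 called lower form tails of like size on either side of 0.

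Part of this difference was present before the drug. At 0 h 1063 genes (8.33%) were called between the lines. Of these, 555 were called in the same direction at 18 h, which is 52.2% of the genes called at 0 h and 7.48% of those called at 18 h, and 247 were called in the opposite direction. When the 0 h difference was subtracted, 5492 genes (43.0%) were called, 2806 up and 2686 down. Most of the movement lay in the Ikaros line. In Ikaros cells 6966 genes (54.6%) were called between 0 h and 18 h. In control cells 61 genes (0.478%) were called, although 1899 had an unadjusted p under 0.05. That count was 115, 10 and 4 without the 18 h control libraries of batches 1, 3 and 4, and 0 when only the control libraries of 0 h and 18 h were fitted with limma, with 1608 genes at an unadjusted p under 0.05.

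By annotation, the median transcript length was 3446.5 bases for genes called higher and 3044.5 for genes called lower, beside 3071 over all genes, and the median GC content was 50.5% and 49.5% beside 49.6%. Pseudogenes made up 1.66% of the genes called higher, 3.15% of those called lower and 6.96% of those not called. Long non-coding RNAs were 5.62%, 4.07% and 7.65% of the same sets. Protein-coding genes made up 91.2%, 91.8% and 81.3%.

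The genes with the largest rises, among those with a mean no lower than the median gene mean (11.72) and no overlap between the lines, were led, after Ikzf1 itself, by Tubb2b, a beta tubulin best known from neurons. It read 10.08, 10.12 and 9.96 in control and 15.99, 15.63 and 16.19 in Ikaros libraries, a difference of 5.88 (SE 0.23, adjusted p = 3.47e-17). Neil1, a DNA glycosylase of base excision repair, read 11.14, 10.96 and 10.44 against 16.39, 16.19 and 16.53 and rose by 5.52 (SE 0.17). Cerk, the kinase that makes ceramide 1-phosphate, read 11.64, 11.27 and 11.05 against 16.26, 16.15 and 16.31 and rose by 4.92 (SE 0.14). In these 3 genes the 0 h difference was at most 0.14 in size. Tifa, an adaptor of TRAF6 signalling, rose by 4.38, Akap12, a scaffold for protein kinase A, by 4.14, Osr2, a zinc finger factor, by 3.97 and Gpam, the first acyltransferase of glycerolipid synthesis, by 3.96. Gadd45b, a stress and growth arrest gene, was 5.25 higher, but 4.46 of that was there at 0 h. The change from 0 h to 18 h was 0.79 (adjusted p = 0.0445). Fat1, a large cadherin, was 4.10 higher, beside 1.68 at 0 h.

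The falls were led by Tac4, the gene of hemokinin, a tachykinin made by B cell precursors. It read 14.57, 14.74 and 14.78 in control and 8.64, 9.55 and 9.04 in Ikaros libraries, and fell by 5.62 (SE 0.24, adjusted p = 2.41e-16). Etv4, an Ets factor often found downstream of ERK signalling, read 13.18, 13.23 and 13.59 against 9.27, 9.56 and 8.91 and fell by 4.09. The cytokine genes Tnf and Lta, neighbours on chromosome 17, fell by 3.87 (SE 0.44) and 3.59 (SE 0.44). Tnf varied more between libraries than Tac4, with Ikaros values of 7.71, 9.45 and 9.0 and control values of 11.90, 12.85 and 13.01. Fkbp11, an ER prolyl isomerase of secretory cells, and Phlda1, a gene induced by growth signals, each fell by 3.73. Slc17a9, the vesicular nucleotide transporter, fell by 3.66, Tmem119 by 3.54 and Ccnd2, the G1 cyclin D2, fell by 3.40. At 0 h none of these genes was called lower, and Ccnd2 was 0.70 higher.

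**Figure D2:**
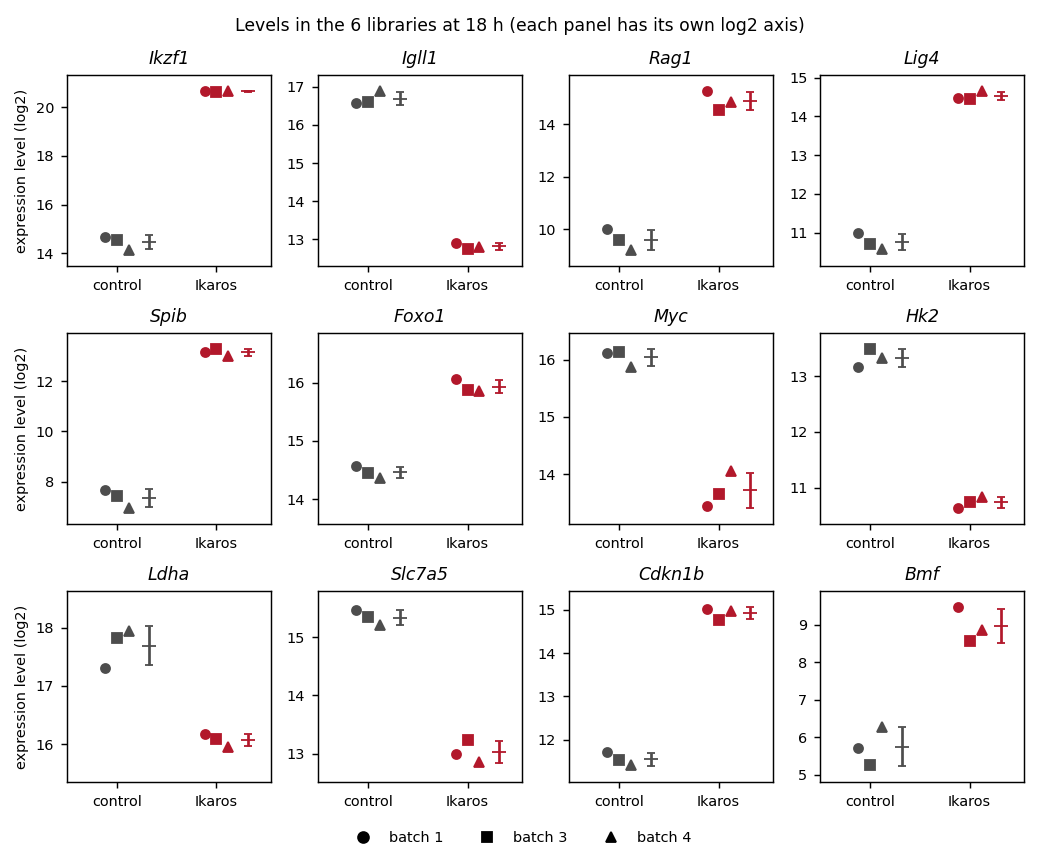
Log2 level (vertical axis, scaled separately in each panel) of 12 genes in the control (grey) and Ikaros (red) libraries at 18 h, with marker shapes for culture batches 1, 3 and 4 and a cross-bar with the mean and SD of 3 libraries. In every panel the 3 Ikaros values lie apart from the 3 control values, from Ikzf1 at 14.46 against 20.66 to Foxo1 at 14.46 against 15.93 on average.

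Among the parts of the pre-B receptor, the surrogate light chain was low, and of the signalling chains only Cd79b was high. Igll1, which encodes the lambda5 part of the surrogate light chain, read 16.58, 16.60 and 16.89 in control and 12.91, 12.73 and 12.81 in Ikaros libraries, and fell by 3.88 (SE 0.20, adjusted p = 6.00e-15). Its partner Vpreb1 fell by 2.88 (SE 0.25), from 15.81, 15.60 and 16.32 to 13.16, 12.94 and 13.00. Vpreb2, a near-identical copy of Vpreb1 whose reads may be shared with it, fell by 3.13. Cd79b, the Ig beta signalling chain, rose by 1.86 (SE 0.11), from 15.66, 15.79 and 15.69 to 17.53, 17.59 and 17.59, and Ighm, the mu heavy chain, by 1.48 (SE 0.18). Cd79a, the Ig alpha signalling chain, and Vpreb3 were not called, at differences of -0.09 and 0.03. The list of 7 thus held 2 genes called higher (28.6%) and 3 called lower (42.9%), beside 29.0% and 29.2% over all genes. Its median was -0.09.

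Of 18 signalling genes listed for the receptor, 17 were in the table, 7 were called higher (41.2%), 6 lower (35.3%) and 4 neither, with a median of -0.09, beside 29.0% higher and 29.2% lower over all genes. The adaptor and the kinase that act just after the receptor were high. Blnk, the B cell linker adaptor, read 11.89, 11.43 and 11.13 in control and 15.20, 14.96 and 14.74 in Ikaros libraries, a rise of 3.49 (SE 0.19). Syk, the tyrosine kinase, rose by 2.07 (SE 0.09) and Lyn, a Src family kinase, by 1.46. Lower were Ptpn6, the SHP-1 phosphatase, by -0.93, Zap70, a relative of Syk, by -0.92 and Plcg2, phospholipase C gamma 2, by -0.90. The list's widest differences at 18 h were already present at 0 h. Cd22, an inhibitory receptor, was 4.49 higher at 18 h and 5.31 higher at 0 h. Prkcb, protein kinase C beta, was 4.38 lower at 18 h and 4.87 lower at 0 h. Neither changed between 0 h and 18 h by the test (adjusted p = 0.326 and 0.741). Both also lay near the bottom of the scale in 1 line: the Cd22 control values were 5.60, 6.87 and 7.48, and the Prkcb Ikaros values were 4.53, 3.88 and 4.61, while the 25th percentile of gene means was 9.51.

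Genes of V(D)J recombination, which cuts and rejoins immunoglobulin gene segments, were mixed in number but held some of the widest rises. Rag1, the catalytic part of the recombinase, read 9.98, 9.59 and 9.22 in control and 15.26, 14.55 and 14.84 in Ikaros libraries, a rise of 5.28 (SE 0.29, adjusted p = 3.35e-14). Its partner Rag2, which lies beside it on chromosome 2, rose by 2.89 (SE 0.16), from 9.68, 9.35 and 9.05 to 12.40, 12.13 and 12.23. Lig4, the ligase that seals the joined ends, rose by 3.76 (SE 0.20), from 10.98, 10.72 and 10.59 to 14.48, 14.44 and 14.65. The Ku subunits, which bind broken ends as a pair, went opposite ways: Xrcc6 (Ku70) was 1.32 higher and Xrcc5 (Ku80) 0.78 lower. Prkdc, the kinase that Ku recruits, was 0.57 lower. Dntt, which adds bases at joints, had a difference of 0.67 and was not called. Of the 16 genes listed, 7 were called higher (43.8%), 2 lower (12.5%) and 7 neither, beside 29.0% and 29.2% over all genes. Called in either direction were 56.2%, beside 58.2% of all genes. The median was 0.40 beside -0.02 over all genes.

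Promoters were searched for the core letters that Ikaros recognises. TGGGAA was searched on both strands in windows from 250 bases before to 50 bases after each RefSeq gene start (GRCm38.p6), in 11719 promoters that matched 9223 genes of the table (72.3%). It was found in 22.7% of all those promoters, in 21.4% of those of genes called higher by at least 1 and in 26.5% of those of genes called lower by at least 1. A match is a description of the letters and not a binding site. The following 60 bases are shown for genes with wide differences in either direction, each on the strand of its gene, with the match in capitals (TTCCCA where the match is on the other strand).
Rag1, chr2:101649552-101649611, minus strand: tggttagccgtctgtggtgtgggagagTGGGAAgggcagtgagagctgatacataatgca
Lig4, chr8:9976374-9976433, minus strand: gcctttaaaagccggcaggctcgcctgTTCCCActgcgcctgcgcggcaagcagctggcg
Vpreb2, chr16:17980474-17980533, plus strand: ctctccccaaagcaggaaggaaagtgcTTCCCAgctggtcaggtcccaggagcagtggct
Tac4, chr11:95261306-95261365, plus strand: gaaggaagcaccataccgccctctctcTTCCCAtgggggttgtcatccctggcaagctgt
Polr1b, chr2:129100954-129101013, plus strand: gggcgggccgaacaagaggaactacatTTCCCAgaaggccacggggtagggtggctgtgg

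Transcription factors of the B lineage mostly rose. Of 24 listed, 21 were in the table, with a median of 0.97. Among these, 16 were called higher (76.2%), 4 lower (19%) and 1 neither, beside 29.0% and 29.2% over all genes. Spib, an Ets factor of B cells, read 7.65, 7.42 and 6.96 in control and 13.15, 13.28 and 13.03 in Ikaros libraries, a rise of 5.81 (SE 0.30). Bach2, a repressor that acts at the pre-B checkpoint and against plasma cell fate, rose by 5.30 (SE 0.28), from 9.67, 9.30 and 8.97 to 14.61, 14.55 and 14.66. Ets1 was 8.24 higher (SE 0.35), but 4.93 higher already at 0 h, and the change between them was 3.31 (adjusted p = 5.89e-06). Bcl6, a repressor that protects pre-B cells during recombination, was 4.33 higher, beside 2.00 at 0 h. The factors that set B cell identity moved less: Pax5 rose by 0.97, Ebf1 by 0.55 and Tcf3, which encodes the E2A proteins, by 0.35. Foxo1, which switches on the Rag genes, rose by 1.47 (SE 0.09), from 14.56, 14.45 and 14.37 to 16.07, 15.88 and 15.86. Lower were Lef1, a factor of pre-B cells, at -1.46, Irf4 at -1.46 and Irf8 at -0.70. The difference in Irf4 was -3.12 at 12 h and 0.11 at 24 h. Its change from 12 h to 18 h was called, but not in 8 alternatives, such as without the control library of batch 4 (adjusted p = 0.158). Its change from 18 h to 24 h was not called. Ikzf3, a close relative of Ikaros low on the scale in both lines, was 1.43 lower, and that call was lost without the control library of batch 4 (adjusted p = 0.121) or the Ikaros library of batch 1 (adjusted p = 0.139).

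On the IL-7 receptor axis, which supports pre-B cell growth through STAT5, receptor chains rose, and a pair of feedback genes was low, as it had been at 0 h. Il7r rose by 1.61 (SE 0.16), from 14.31, 13.93 and 13.69 to 15.59, 15.59 and 15.58, and Il2rg, the shared gamma chain, by 1.21. Il2ra (CD25), a surface mark of small pre-B cells, was 1.83 higher (SE 0.25) at 18 h after having been 2.40 lower at 0 h, a change of 4.23 (adjusted p = 4.44e-10). Its 18 h values were 12.55, 11.82 and 11.69 in control and 14.24, 13.68 and 13.64 in Ikaros libraries. The STAT5 feedback genes Socs2 and Cish were 1.40 and 1.31 lower. They had been 1.00 and 2.05 lower at 0 h, and the change was not called (adjusted p = 0.355 and 0.279). Of 13 genes, 5 were called higher (38.5%) and 3 lower (23.1%), with a median of 0.28, beside 29.0% and 29.2% over all genes. At 0 h the list median had been -0.61. When the 0 h difference was subtracted, 9 of the 13 were called up and 1 down, with a median change of 1.24. Over all 12762 genes, 2806 were called up and 2686 down in that test.

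Within the Myc network the activator was low and its antagonists were high. Myc read 16.11, 16.13 and 15.87 in control and 13.45, 13.66 and 14.05 in Ikaros libraries, and fell by 2.32 (SE 0.17, adjusted p = 5.46e-12). Mxd4, which competes with Myc for their partner Max, rose by 3.77 (SE 0.23), from 12.68, 12.34 and 12.69 to 16.53, 16.06 and 16.43. Mxd1 was 1.35 higher, Mxd3 0.96 and Mxi1 0.46. Max itself was not called, at 0.34. Mycn was 3.75 lower, but 4.63 lower at 0 h, and its change was not called (adjusted p = 0.342).

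Around the G1 checkpoint of the cell cycle, the D cyclins were low, and the inhibitors Cdkn1b and Cdkn2c were high. Ccnd2 fell by 3.40 (SE 0.18), from 14.78, 14.83 and 14.61 to 11.08, 11.54 and 11.38. Ccnd1 was 3.56 lower at 18 h after being 1.90 higher at 0 h, a change of -5.46 (adjusted p = 1.18e-12). Ccnd3, the cyclin D that pre-B cells depend on, was 0.65 lower, and Cdk6, its kinase partner, was also called lower. Cdkn1b, the p27 inhibitor, rose by 3.37 (SE 0.20), from 11.71, 11.53 and 11.41 to 15.02, 14.76 and 14.97. Cdkn2c, the p18 inhibitor, rose by 1.77 and Rb1, the retinoblastoma gene, by 1.23. Cdkn2a, the gene of the p16 and Arf proteins, was 0.85 higher, a call lost without the control library of batch 1 or 3 (adjusted p = 0.0525 and 0.0628) or when only the libraries of 18 h were fitted. The p53 target Cdkn1a (p21) was not called, at -0.19, with overlapping values of 14.81, 14.33 and 14.32 against 14.46, 14.23 and 14.20. Of 22 genes in the table, 7 were called higher (31.8%), 8 lower (36.4%) and 7 neither, and the median was -0.03, so the list as a whole lay near the 29.0% and 29.2% of all genes.

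S phase genes were lower in part. Of 46, 26 were called lower (56.5%), 2 higher (4.35%) and 18 neither, beside 29.2% and 29.0% over all genes. Called in either direction were 60.9%, beside 58.2% of all genes. The median was -0.32. The largest fall was that of Tyms, the thymidylate synthase, by 2.41 (SE 0.15), from 13.89, 13.90 and 14.37 to 11.59, 11.79 and 11.55. Gins1, of the replicative helicase, fell by 1.30 and Hells, a chromatin remodeller, by 1.29 (SE 0.10). The MCM helicase showed no such fall: Mcm2, Mcm3, Mcm4, Mcm5 and Mcm6 were not called, at differences from -0.19 to 0.32, and Mcm7 was 0.32 higher. The Mcm7 call was lost in 4 alternatives, with 0.22 (adjusted p = 0.121) without the control library of batch 4 and 0.30 (adjusted p = 0.0540) without the Ikaros library of batch 3. Cdt1, which loads that helicase, was 0.64 higher. Pcna, the sliding clamp, was not called, at 0.11, with values of 17.75, 17.01 and 17.48 in control and 17.74, 17.22 and 17.62 in Ikaros libraries.

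The shares of G2 and M phase genes that were called were no higher than those over all genes. Of 52, 15 were called higher (28.8%), 11 lower (21.2%) and 26 neither, with a median of 0.16, beside 29.0% and 29.2% over all genes. Cdc25b, a phosphatase that starts mitosis, rose by 1.66, and Ccnb2, cyclin B2, by 1.35 (SE 0.19). Cyclin B1 (Ccnb1) was lower by 0.79 and Cdk1, the kinase both cyclins activate, by 0.60. The proliferation marker Mki67 was not called, at 0.39, nor were Top2a at 0.19 and Ccna2 at 0.06.

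**Figure D3:**
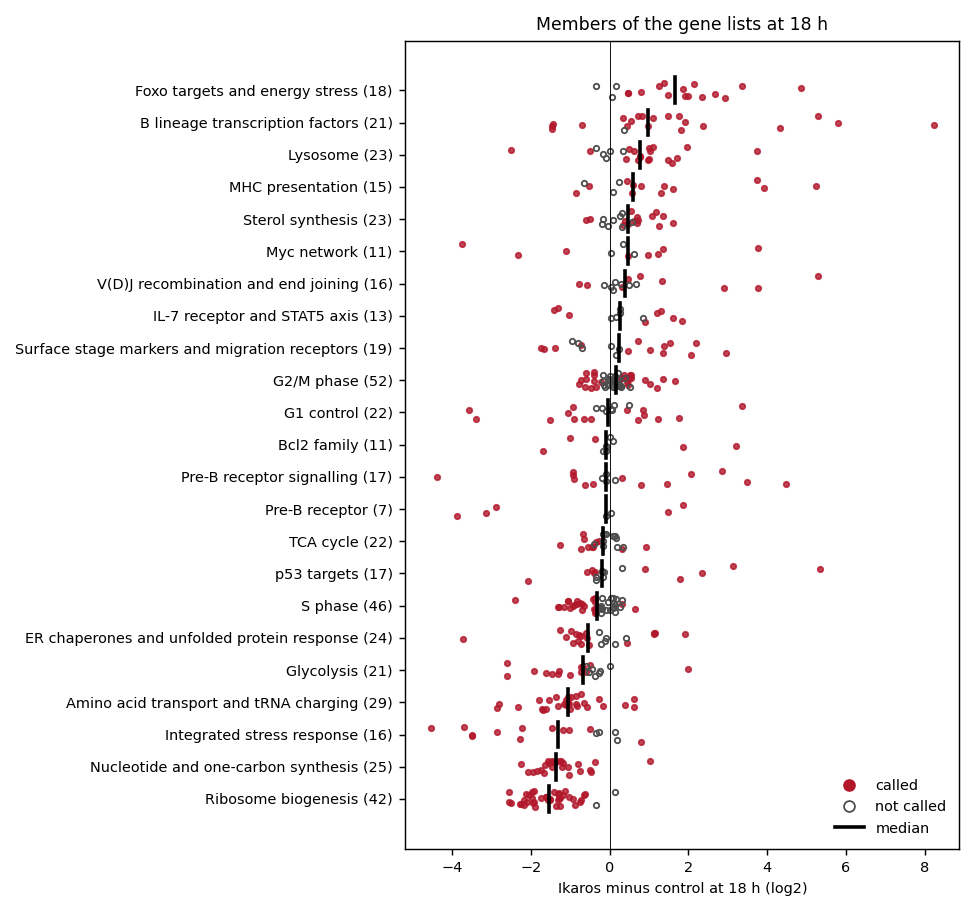
Log2 difference between Ikaros and control cells at 18 h (horizontal axis) for the members of 23 gene lists, with the number of members in the table in brackets, called genes as filled red points, others as open circles and the list median as a black bar. Points are shifted up or down at random only to keep them apart, and the medians run from -1.53 for ribosome biogenesis to 1.66 for Foxo targets and energy stress.

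Ribosome biogenesis, the making of ribosomes in the nucleolus, was low almost throughout. Of 42 genes, 40 were called lower (95.2%, beside 29.2% of all genes), none higher, and 34 were lower by at least 1. The median was -1.53 beside -0.02 over all genes. Polr1b, the second subunit of RNA polymerase I, read 13.80, 13.93 and 13.63 in control and 11.09, 11.42 and 11.16 in Ikaros libraries, and fell by 2.56 (SE 0.13). Gnl3, the nucleolar GTPase nucleostemin, fell by 2.56 (SE 0.16) and Ncl, nucleolin, by 1.90 (SE 0.20). The subunits that polymerase I shares with polymerase III stood apart: Polr1c was not called, at -0.34, and neither was Polr1d, at 0.15.

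Nucleotide and one-carbon synthesis was also low. Of 25 genes, 24 were called lower (96%) and 1 higher (4%), beside 29.2% and 29.0% over all genes. The median was -1.37. Shmt1, the cytosolic serine hydroxymethyltransferase, fell by 2.24 (SE 0.14), from 14.17, 14.28 and 14.00 to 11.75, 12.19 and 11.78, and Dhodh, of pyrimidine synthesis, by 2.08. Cad, which starts pyrimidine synthesis, fell by 1.37 and Mthfd2, of mitochondrial folate metabolism, by 1.75. The exception was Ctps2, one of a pair of CTP synthases, which rose by 1.03 (SE 0.16), while the other, Ctps, fell by 1.28.

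Amino acid transporters and tRNA synthetases made up a list of 29 genes, with a median of -1.05. Of them, 26 were called lower (89.7%) and 3 higher (10.3%), beside 29.2% and 29.0% over all genes. Slc7a5, the large neutral amino acid transporter, read 15.47, 15.34 and 15.21 in control and 12.99, 13.23 and 12.86 in Ikaros libraries, and fell by 2.32 (SE 0.19, adjusted p = 7.59e-11). Slc7a11, the cystine transporter, fell by 2.86 and Slc1a4, a neutral amino acid transporter, by 2.82 (SE 0.13). Slc3a2, the partner chain of Slc7a5, fell by 1.37. Higher were Slc38a1 by 0.63, Slc38a2 by 0.61 and Qars, the glutamine tRNA synthetase, by 0.39. Without the control library of batch 4, Slc38a2 was 0.34 higher and not called (adjusted p = 0.184).

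Genes of the integrated stress response, many of them targets of Atf4, were low as well. Of 16 in the table, 11 were called lower (68.8%) and 1 higher (6.25%), beside 29.2% and 29.0% over all genes. The median was -1.32. Members Slc7a11, Phgdh and Psat1 also stand in the lists above. Asns, the asparagine synthetase, read 15.40, 15.63 and 15.70 in control and 13.34, 13.45 and 13.29 in Ikaros libraries, and fell by 2.22 (SE 0.11). Trib3 fell by 3.50 and Chac1, which degrades glutathione, by 3.49. Atf3 fell by 3.69 (SE 0.58), from 9.97, 10.19 and 9.25 to 6.61, 6.40 and 5.34. Nupr1 fell by 4.55 (SE 0.62), to 3.47, 3.87 and 4.07, near the bottom of the scale. Atf4 itself was not called, at -0.27. Ddit4, an inhibitor of mTORC1, was the 1 gene called higher, by 0.80.

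Glycolysis, the breakdown of glucose to lactate, was lower in most but not all of its genes. Of 21 genes in the table, 13 were called lower (61.9%), 1 higher (4.76%) and 7 neither, beside 29.2% and 29.0% over all genes. Among the 13, the calls of Aldoa and Tpi1 were lost in 6 and 4 alternatives. The median was -0.68. Hk2, hexokinase 2, which traps glucose in the cell, read 13.17, 13.49 and 13.33 in control and 10.64, 10.73 and 10.83 in Ikaros libraries, and fell by 2.60 (SE 0.15, adjusted p = 4.22e-14). Ldha, the lactate dehydrogenase A gene, fell by 1.62 (SE 0.22), from 17.32, 17.82 and 17.94 to 16.17, 16.09 and 15.95. Slc2a1, the glucose transporter GLUT1, was 1.32 lower. The lactate carriers moved in opposite directions. Slc16a3 (MCT4) fell by 2.60 (SE 0.52), from 11.83, 12.75 and 12.91 to 10.53, 10.15 and 9.0, whereas Slc16a1 (MCT1) rose by 1.99 (SE 0.16), from 14.87, 14.79 and 14.80 to 16.91, 16.57 and 16.95. Gapdh, Pkm and Pgk1 were not called, at -0.25, -0.26 and -0.52.

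CACGTG, the E-box bound by Myc with Max and also by other factors, was found in 10.1% of the matched promoters on either strand (the motif reads the same on both), in 8.66% of those of genes called higher by at least 1 and in 12.7% of those of genes called lower by at least 1. Windows of 60 bases are shown for Ldha, with a pair of matches, for Tyms, and for Mxd4 and Slc16a1, which rose. Capitals mark the E-box.
Ldha, chr7:46845632-46845691, plus strand: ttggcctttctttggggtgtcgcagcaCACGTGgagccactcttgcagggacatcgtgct
Ldha, chr7:46845729-46845788, plus strand: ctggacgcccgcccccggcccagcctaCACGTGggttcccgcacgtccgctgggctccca
Tyms, chr5:30073654-30073713, minus strand: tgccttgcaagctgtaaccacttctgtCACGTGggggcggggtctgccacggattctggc
Mxd4, chr5:34187897-34187956, minus strand: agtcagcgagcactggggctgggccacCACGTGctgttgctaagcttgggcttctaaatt
Slc16a1, chr3:104638437-104638496, plus strand: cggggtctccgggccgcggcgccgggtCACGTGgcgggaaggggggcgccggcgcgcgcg

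Over the promoters of the ribosome biogenesis list the E-box share was 13.6%, over those of nucleotide and one-carbon synthesis 17.2% and in the lysosome list, whose members mostly rose, 6 of 24 promoters held it. The E2F motif, searched as TTTGGCGC or TTTCCCGC on both strands, was found in 3.02% of all matched promoters and in 12 of 39 promoters (30.8%) of the S phase list. Its share was 1.61% for genes called higher by at least 1 and 2.10% for those called lower by at least 1. The forkhead motif TGTTTAC was found in 2.50% of all matched promoters. In the same sets of called genes its shares were 2.39% and 2.03%.

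Genes of mitochondrial oxidation were mixed. Of 22 genes of the TCA cycle and its entry, 9 were called lower (40.9%), 2 higher (9.09%) and 11 neither, with a median of -0.18. Called in either direction were thus 11 of 22, beside 58.2% of all genes. Idh3a, the catalytic subunit of the NAD-dependent isocitrate dehydrogenase, fell by 1.26 (SE 0.10), and Fh1, fumarase, by 0.71. Pdha1, of the pyruvate dehydrogenase that feeds the cycle, rose by 0.93 (SE 0.14). Idh3g, another subunit of the same enzyme as Idh3a, was 0.32 higher, a call lost in 1 alternative.

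Targets of the Foxo factors and genes of energy stress, which slow growth and spare energy, rose as a group. Of 18 Foxo targets and energy stress genes in the table, 15 were called higher (83.3%, beside 29.0% of all genes), none lower and 3 neither. The median was 1.66, the highest of the 23 lists. Ccng2, an atypical cyclin, rose by 3.37, Pik3ip1, an inhibitor of PI3 kinase, by 2.93 (SE 0.16), from 10.85, 11.00 and 11.09 to 13.95, 13.75 and 14.03, and Txnip, a brake on glucose uptake, by 1.37 (SE 0.21). Foxo3 was 1.86 higher. Sesn3, which links Foxo factors to mTORC1, was 4.86 higher, beside 3.91 at 0 h, and its change was not called (adjusted p = 0.165). Tsc22d3 and Sesn2 were not called, at 0.18 and -0.36.

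Sterol synthesis genes were mostly higher. Of 23, 13 were called higher (56.5%), 2 lower (8.7%) and 8 neither, beside 29.0% and 29.2% over all genes. The median was 0.46. Insig1, which holds back sterol synthesis and is itself a target of SREBP, rose by 1.60 (SE 0.24), and Fdft1, squalene synthase, by 1.35. Stard4, a sterol carrier, and Ebp, a late enzyme, were lower by 0.59 and 0.50. Lysosome genes were also mostly higher: of 23 in the table, 16 were called higher (69.6%) and 2 lower (8.7%), with a median of 0.76. Ctss, the cathepsin of antigen processing, rose by 3.75 (SE 0.20), from 8.73, 9.37 and 8.62 to 12.40, 12.76 and 12.79, and Tpp1, a lysosomal peptidase, by 1.96. The regulator Tfeb was not called, at 0.01, and its relatives Tfe3 and Mitf were 0.50 and 2.50 lower, Mitf from a level near the bottom of the scale.

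Among ER chaperones and genes of the unfolded protein response, chaperones were low and sensors were high. Of 24, 13 were called lower (54.2%), 5 higher (20.8%) and 6 neither, beside 29.2% and 29.0% over all genes. The median was -0.56. Fkbp11 fell by 3.73 and Hyou1, a large ER chaperone, by 1.27, and Hspa5 (BiP), the main one, was 0.72 lower. The sensors Ern1 (IRE1) and Atf6 rose by 1.92 and 1.15, and Xbp1, which Ern1 splices, by 1.14.

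In the Bcl2 family, which decides on cell death, the survival gene Bcl2 was low, and death-promoting genes went both ways. Bcl2 fell by 1.70 (SE 0.20), from 10.77, 10.71 and 11.39 to 9.13, 9.29 and 9.34. Bcl2l11 (Bim) rose by 1.86 (SE 0.19), from 10.40, 10.07 and 9.86 to 12.08, 11.77 and 12.05. Bmf rose by 3.21 (SE 0.38), from 5.71, 5.26 and 6.29, which is low on the scale, to 9.47, 8.57 and 8.86. Bid and Bbc3 (Puma), which also promote death, were 1.01 and 0.38 lower, and the Bbc3 call was lost in 7 alternatives. The survival genes Mcl1, Bcl2l1 and Bcl2l2 were not called, at 0.08, -0.00 and -0.06. Of 11 genes in the table, 2 were called higher (18.2%), 3 lower (27.3%) and 6 neither, shares below those over all genes (29.0% and 29.2%), and the median of -0.08 changed sign to 0.0016 without the Ikaros library of batch 4.

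In the p53 target list 5 of 17 genes in the table were called higher and 5 lower (29.4% each), with a median of -0.19, beside 29.0% and 29.2% over all genes. Trp53inp1, which promotes arrest and death, rose by 5.34 (SE 0.29), from 9.53, 9.30 and 9.82 to 14.91, 14.68 and 15.09, and Btg2, an antiproliferative gene, by 3.14. Aen, a nuclease, fell by 2.07 and Polk, a DNA polymerase, by 0.56. Mdm2 and Bax were not called, at 0.32 and -0.17.

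Transcripts of antigen presentation genes were higher in part. Of 15 genes in the table, 10 were called higher (66.7%) and 2 lower (13.3%), beside 29.0% and 29.2% over all genes. The median was 0.60. H2-Oa and H2-Ob, the chains of the class II modulator H2-O, rose by 5.25 (SE 0.21) and 3.93, H2-Oa from 8.29, 7.88 and 8.25 to 13.49, 13.34 and 13.34. B2m, the light chain of class I, was 0.79 higher. The classical class II chain H2-Ab1 was 0.86 lower (SE 0.21), with values of 12.84, 12.98 and 13.45 against 12.43, 12.21 and 12.03. H2-DMa was 0.53 lower, a call lost in 7 alternatives, among them those without the control library of batch 3 or 4 (adjusted p = 0.131 and 0.125) or the Ikaros library of batch 3 or 4 (adjusted p = 0.0708 and 0.247).

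Of the surface and migration receptors, 19 of 26 were in the table, with a median of 0.25. Among these, 9 were called higher (47.4%) and 4 lower (21.1%), beside 29.0% and 29.2% over all genes. Cxcr4, which keeps precursors in the bone marrow, rose by 2.07 (SE 0.23), from 13.30, 12.60 and 12.31 to 14.84, 14.64 and 14.94. Itgb7 and Cxcr5 rose by 2.95 and 2.20 from levels near the bottom of the scale. Cr2, a complement receptor, and Tnfrsf13c, the BAFF receptor, fell by 1.74 and 1.66, and Cd44, an adhesion receptor, by 1.40.

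The step from 12 h to 18 h was tested as the difference of the differences. The gap between the lines changed in 1497 genes (11.7%), upward in 707 (5.54%) and downward in 790 (6.19%). The count was 589 when only the libraries of 12 h and 18 h were fitted, and 918 without the control library of batch 4 at 18 h. These tests use the 18 h libraries again, so they are no independent check of the differences at 18 h.

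Many genes of growth metabolism moved down in this step. In nucleotide and one-carbon synthesis 16 of 25 genes moved down, in amino acid transport and tRNA charging 20 of 29, in ribosome biogenesis 19 of 42, in glycolysis 11 of 21 and in S phase 11 of 46, beside 6.19% of all genes. When only the libraries of 12 h and 18 h were fitted, these counts were 7, 9, 6, 10 and 4. Without the Ikaros library of batch 1 at 18 h they were 12, 14, 10, 11 and 7, and without the control library of batch 4 they were 13, 17, 15, 11 and 6. The median difference between the lines went from -0.69 at 12 h to -1.37 at 18 h for nucleotide synthesis, and from -1.06 to -1.53 for ribosome biogenesis. Glycolysis crossed over: its median was 0.59 at 2 h and 0.23 at 12 h, then fell below 0 to -0.68 at 18 h and reached -1.47 at 24 h. Ldha went from -0.14 at 12 h to -1.62 at 18 h, a change of -1.48 (SE 0.31, adjusted p = 0.00270). Slc16a3 went from 0.80 to -2.60, a change of -3.41 (SE 0.74, adjusted p = 0.00364), and was the largest fall of the step among genes with a mean no lower than the median gene mean. By that rule Etv4 followed with -2.23 (SE 0.31) and Cox7a1, a muscle-type subunit of cytochrome c oxidase, with -1.93 (SE 0.53, adjusted p = 0.0175). Cox7a1 was not called at 18 h itself, at -0.71, and its change was lost without the Ikaros library of batch 4 (adjusted p = 0.0566). Among genes with lower means, Ikzf3 changed by -2.77 and Atf3 by -2.49. The Ikzf3 call was lost without the control library of batch 4 or the Ikaros library of batch 1 (adjusted p = 0.0583 and 0.0571), and that of Atf3 without any 1 of the 6 libraries of 18 h (adjusted p from 0.0554 to 0.139).

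**Figure D4:**
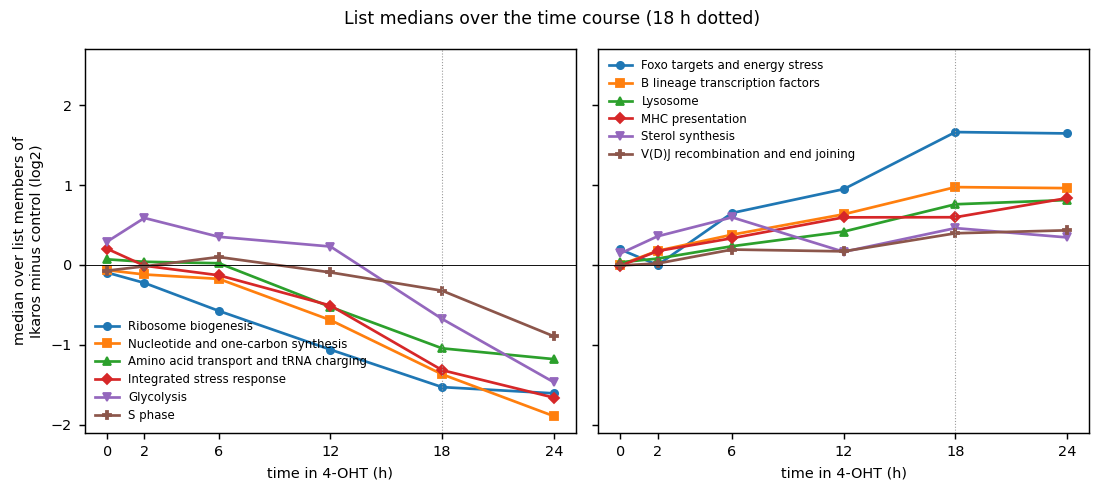
Median over the members of each list of the log2 difference between Ikaros and control cells (vertical axis) at 0, 2, 6, 12, 18 and 24 h (horizontal axis, hours), for 6 lists with a negative median at 18 h (left) and 6 with a positive one (right), with 18 h dotted. The glycolysis line passes from 0.23 at 12 h to -0.68 at 18 h, while the ribosome biogenesis line is at -1.06 already at 12 h.

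Some recombination genes moved up in the same step. In the V(D)J list 4 of 16 genes moved up, beside 5.54% of all genes: Rag1 by 2.75 (SE 0.41, adjusted p = 9.34e-05), Rag2 by 1.29, Xrcc6 by 1.03 and Lig4 by 0.91. The Lig4 call was lost without the control library of batch 3 or 4 (adjusted p = 0.0680 and 0.0988) or the Ikaros library of batch 1 or 4 (adjusted p = 0.0623 and 0.0871). Bach2 moved up by 2.78 (SE 0.39) and Il2ra by 1.91 (SE 0.36), from -0.08 to 1.83. Bmf, at -0.05 at 12 h, moved up by 3.26 (SE 0.53, adjusted p = 0.000251). In sterol synthesis 7 of 23 moved up, led by Insig1 with 1.65, and 4 did without the Ikaros library of batch 1. The largest upward changes by rule were those of 2900097C17Rik, whose position was not matched here, by 2.86 (SE 0.79, adjusted p = 0.0186), Thbd, the thrombin receptor thrombomodulin, by 2.54 (SE 0.29) and Mgat5, a glycosyltransferase, by 2.51 (SE 0.64). The first of these was not called at 18 h itself, at 0.86, and its change was lost without the control library of batch 4 (2.42, adjusted p = 0.0690) or the Ikaros library of batch 4 (adjusted p = 0.0516). The 18 h call of Thbd, at 0.57, was lost without the control library of batch 3 or 4 (adjusted p = 0.0726 and 0.0545) or the Ikaros library of batch 4 (0.39, adjusted p = 0.135).

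**Figure D5:**
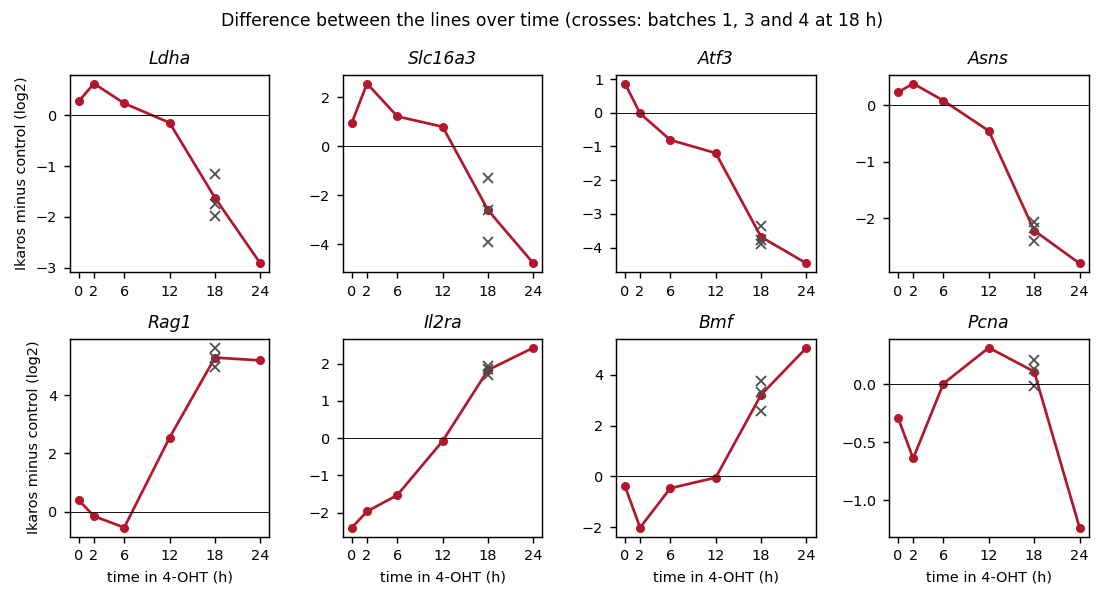
Log2 difference between the group means of Ikaros and control cells (vertical axis, scaled separately) over 0 to 24 h (horizontal axis) for 8 genes, with crosses for the differences within batches 1, 3 and 4 at 18 h. Ldha, Slc16a3 and Asns turn down between 12 h and 18 h, as does Atf3, whose change was not called without any 1 of the 18 h libraries, Rag1, Il2ra and Bmf turn up, and Pcna turns down after 18 h, from 0.11 to -1.24.

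The step from 18 h to 24 h was called in fewer genes, and those calls rested on the spread estimated over all libraries. The gap changed in 336 genes (2.63%), upward in 91 (0.713%) and downward in 245 (1.92%). When only the libraries of 18 h and 24 h were fitted with limma, the count was 0, with 2273 genes at an unadjusted p under 0.05. It was 186 without the control library of batch 3, and 167 and 165 without the Ikaros libraries of batches 1 and 3 at 18 h. Every gene named next as called in this step lost its call when only those libraries were fitted.

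Downward changes by rule were led by Cox6a2, a muscle-type oxidase subunit, with -1.49 (SE 0.31, adjusted p = 0.00864), Hist1h2bk, a histone gene, with -1.36 (SE 0.34) and Pcna with -1.35 (SE 0.37, adjusted p = 0.0447). Cox6a2 was 1.90 higher in Ikaros cells at 18 h. Hist1h2bk and Pcna were not called at 18 h, at 0.09 and 0.11. Upward, Malat1, an abundant nuclear RNA, changed by 1.17 (SE 0.30) and Sp110, an interferon-induced nuclear body gene, by 1.02 (SE 0.23). Gm9385, a processed pseudogene whose reads may come from other copies, changed by 2.48 (SE 0.63). Of these 6 genes only Cox6a2 kept its call without each single library of 18 h. Without the control library of batch 4, Pcna (adjusted p = 0.0671) and Gm9385 (adjusted p = 0.0550) were not called. Without that of batch 3, Pcna, Gm9385, Hist1h2bk and Malat1 were not called (adjusted p from 0.0700 to 0.133), and without that of batch 1, Malat1 was not (adjusted p = 0.0800). Without the Ikaros library of batch 1, Pcna, Malat1 and Sp110 lost their calls, without that of batch 3 Hist1h2bk and Gm9385, and without that of batch 4 Pcna, Malat1 and Gm9385. In the S phase list 18 of 46 genes moved down in this step, and in glycolysis 7 of 21, beside 1.92% of all genes. The glycolysis count was 3 and 4 without the Ikaros libraries of batches 1 and 3, and both counts were 0 when only the libraries of 18 h and 24 h were fitted. In ribosome biogenesis no gene was called. The S phase median went from -0.32 at 18 h to -0.89 at 24 h, and that of ribosome biogenesis from -1.53 to -1.61.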

How the data were processed

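Messenger RNA was sequenced by the authors with a strand-specific, paired-end protocol. Fragments were mapped to mm10 by TopHat2, only unique best hits being kept, and were assigned by HTSeq. Normalization by cqn took out GC content and length effects, and non-parametric ComBat those of the preparation run. Tool versions and the strand setting of the counting are not given in the sources used here. As deposited, values are log2 levels, shifted so that the lowest value of the table is 1. They hold no counts, so that library depth is unknown and precision rests on 3 libraries per group. The adjustment before deposition can make standard errors too small. The labels list the drug dose for every library, whereas the methods give no drug at 0 h.

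All 36 libraries, in 12 groups of line and time taken from the labels, entered 1 limma model (version 3.58.1, R 4.3.3) with two-sided moderated tests, with Benjamini-Hochberg adjustment over 12762 genes and calls at an adjusted p under 0.05. In simulated data with log2 changes of size 1, 144 of 200 changed genes were called at 18 h, with 4 unchanged ones, of 12762. The simulation changed far fewer genes than were called in the data and used independent noise without batches. It therefore checks the code and does not give the error rate of the calls reported here. Named genes were Ikzf1, 7 genes followed by RT-PCR in the study (Igll1, Myc, Slc7a5, Hk2, Ldha, Foxo1, Lig4), the 10 largest rises and falls with no overlap and a mean at or above the median gene mean, the 3 largest changes in each direction from 12 h to 18 h and from 18 h to 24 h with the same mean filter, the 2 largest called rises and falls of each of 23 lists, and list members whose role or lack of a call is described. The lists and the genes to be named were chosen with earlier results of these data known. Itgam, Lyz2, Klrb1c, Gata3, Lck, Derl3 and Hbb-b2 were named after their values were seen. Control and Ikaros cultures of a batch share its number in the labels, which pairs the libraries; at 18 h the deviations of paired libraries from their group means correlated at 0.126, 0.203 and 0.152. Alternatives were a replicate block (the batch, or the batch within each time point), quantile normalization, a filter at the 25th percentile, trend and robust settings, a 1.5-fold threshold, fits of the compared groups, and fits without each library. A fit after removal of GC and length trends was added after seeing the data. Positions and biotypes came from GENCODE M21 (GRCm38, 12592 genes), and promoters from RefSeq (GRCm38.p6, 9223 genes). Tables and figures were made with Python 3.11.15, numpy 2.4.6 and pandas 2.3.3.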

Additional observations from a re-analysis of the deposited data

Results flagged for a closer look

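These results were listed because the difference between the lines at 18 h differed from that at another time, by the test of the change itself. It differed from the 0 h difference in 5492 genes, from the 12 h difference in 1497 and from the 24 h difference in 336. Between 12 h and 18 h it changed by 2.86 in 2900097C17Rik, by 2.54 in Thbd and by 2.51 in Mgat5, and by -3.41 in Slc16a3, -2.23 in Etv4 and -1.93 in Cox7a1. Between 18 h and 24 h it changed by 2.48 in Gm9385, by 1.17 in Malat1 and by 1.02 in Sp110, and by -1.49 in Cox6a2, -1.36 in Hist1h2bk and -1.35 in Pcna. The changes after 18 h in these 6 genes were not called when the libraries of 18 h and 24 h were fitted alone.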

How the results depend on the processing

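The number of genes called at 18 h stayed between 6131 and 7966 in all alternatives but 1, and between 6802 and 7221 when single libraries were left out. A 1.5-fold threshold in the test gave 3054, and the filter at the 25th percentile left 2269 of those called with a difference of at least 1, which ranged from 3320 to 3680 without single libraries. Without the control library of batch 4, 6496 (87.5%) of the 7423 genes were still called. With the batch as a replicate block, the 12 h to 18 h change was called in 2383 genes (blocks within time points) and the 18 h to 24 h change in 560, or 591 within time points. The control change from 0 h was called in 129, and in 39 after removal of GC and length trends. Fits of the compared groups alone gave 589, 0 and 0, with 1608 control genes at an unadjusted p under 0.05. Leaving out single libraries gave 918 to 1770 for 12 h to 18 h, 165 to 348 for 18 h to 24 h (348 being the highest), 4 to 115 for control cells (115 without the library of batch 1, 10 without batch 3, 4 without batch 4), 5019 to 5494 for the change from 0 h and 6248 to 6342 for Ikaros cells. The cause was not tested.

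Among genes picked by size, RT-PCR or label check, the paired fits with the batch block changed the call at 18 h of Cox7a1, which gained one (adjusted p = 0.0186). The call of Gm9385 from 18 h to 24 h was lost within time points (adjusted p = 0.0600). No other call of these picked genes changed under the paired fits. Lck, named as a marker, lost its 18 h call with the batch as a factor (adjusted p = 0.0510). Comparisons within 1 line could not be fitted with blocks within time points. Alternative values were tallied for 127 results of the picked genes, without the other members and markers named. Of these 1635 values, 1587 kept direction and call, 45 lost it, 3 gained it and 0 reversed. Outside that tally, 18 h calls were lost in 8 alternatives for Lck, 7 for Bbc3, 6 for Aldoa, 4 each for Klrb1c and Tpi1, 3 for Cdkn2a and 2 for Ikzf3. Calls from 12 h to 18 h were lost in 8 each for Atf3 and Irf4, 5 for Lig4 and 3 for Ikzf3. Of 312 alternative values for list medians, 294 stayed within the spread, 17 moved and 1 reversed, namely the Bcl2 family median, which ran from -0.12 to 0.0016 without single libraries (0.0016 without the Ikaros library of batch 4). No depth is known, so small differences in genes near the bottom of the scale are the least certain.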
